A study of Zea mays with 2 samples.

Results

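Very long loci, those whose genomic span from start to end is 15000 bp or more with introns included, were examined in maize endosperm, the tissue of the kernel that stores starch and protein. Positions were parsed from the deposited identifiers, and rows on chromosomes 1 to 10 whose coordinates occurred once and whose span reached 15000 bp were taken. This gave 437 of 12140 rows, or 3.87% of the 11294 single-position loci of the chromosomes. The choice used span only and no measured level. Endosperm was sampled 15 days after pollination (15 DAP) from kernels of genotype rea1 and from wild-type kernels (WT). The strain background, any further allele shared by the groups and the number of kernels pooled are unstated in the labels. The design text names triplicates, but a single FPKM value per locus and genotype was analysed here, and whether it is a single library, a pool or a mean of the triplicate is unstated. Each genotype therefore has n = 1, called a library below, with no replicate spread and no test. FPKM counts the fragments of a transcript, divided by its length and by the total mapped in that library. Loci carry no gene names, so the tissue's defining markers could not be checked and neither could the level of the mutated gene.

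In plant genomes the span of a gene is set largely by its introns, and in maize long introns often hold transposable elements. Introns are removed by splicing, so a locus of great span may yield a mature transcript of ordinary length, and FPKM is divided by the transcript, not by the span. The mutated gene is known from the study to encode a midasin homologue, and midasin is an AAA-ATPase that remodels precursors of the large ribosomal subunit and is known in yeast as a protein of exceptional length. Whether its locus is among the very long loci was not analysed here.

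The very long loci had spans from 15004 to 191581 bp, with a median of 24012 bp and quartiles of 18292 and 35594 bp. The median was 7.60 times that of the 3614 loci of 2000 to 5000 bp used for comparison, which was 3162 bp. Of the 437 loci, 153 had spans below 20000 bp, 141 spans from 20000 bp to below 30000 bp, 88 spans from 30000 bp to below 50000 bp, and 55 spans of 50000 bp or more. No listed position overlapped another among the 11710 distinct positions of the files. A gene nested in an intron of another would overlap it, so a single listed position may join several overlapping genes. Rows of 15000 bp or more also shared their position more often than shorter rows, since 169 of 607 (27.8%) did so, against 5.39% of rows of 2000 to 5000 bp, and these 169 rows were left out by the rule. For a very long locus it therefore cannot be told from the files whether the span belongs to 1 gene.

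The lowest values above 0 were similar in long and short loci. In rea1 the 2nd percentile of the values above 0 was 0.0408 FPKM in very long loci and 0.0423 FPKM in loci of 2000 to 5000 bp. In WT these percentiles were 0.0439 FPKM and 0.0543 FPKM. Multiplied by span in kilobases, they were 1.14 and 0.127 in rea1 and 1.03 and 0.145 in WT. If the lowest values stand for 1 fragment, FPKM in very long loci was thus not divided by the span. The depth of the libraries is unknown, because the files hold no counts.

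Most very long loci were detected in at least 1 library, and the share that reached 1 FPKM was smaller at the greatest spans. In total 328 of 437 were listed above 0 in rea1 and 321 in WT, 75 were listed at 0 in both libraries and another 75 at 0 in 1 library only. A level of 1 FPKM in the higher library was reached by 231 loci (52.9%, 95% Wilson interval 48.2 to 57.5), and 10 FPKM by 124 (28.4%, 24.4 to 32.8). Wilson intervals here cover the number of loci only, which are not replicates. Over all single-position loci, many of which are shorter than 2000 bp, 48.8% (47.9 to 49.7) reached 1 FPKM and 19.9% (19.2 to 20.6) reached 10 FPKM. Among loci of 2000 to 5000 bp, 57.5% (55.9 to 59.1) reached 1 FPKM and 24.3% (23.0 to 25.8) reached 10 FPKM. Between 5000 and 15000 bp the shares were 71.7% (69.6 to 73.8) and 36.4% (34.1 to 38.7). Within the very long loci, 62.7% (54.9 to 70.0) of those below 20000 bp reached 1 FPKM, 55.3% (47.1 to 63.3) of those from 20000 to below 30000 bp, 38.6% (29.1 to 49.1) of those from 30000 to below 50000 bp and 41.8% (29.7 to 55.0) of those at 50000 bp or more. The share reaching 1 FPKM thus peaked between 5000 and 15000 bp and was lowest, among loci of 2000 bp or more, at 30000 bp or more, where it was 39.9% (32.2 to 48.0). Being listed at 0 in 1 library only was found for 36 of the 143 loci of 30000 bp or more (25.2%, 18.8 to 32.9) and for 39 of the 294 below 30000 bp (13.3%, 9.86 to 17.6). Over all single-position loci 18.7% were at 0 in 1 library only and 23.0% in both, against 17.2% and 17.2% of the very long loci.

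**Figure D1:**
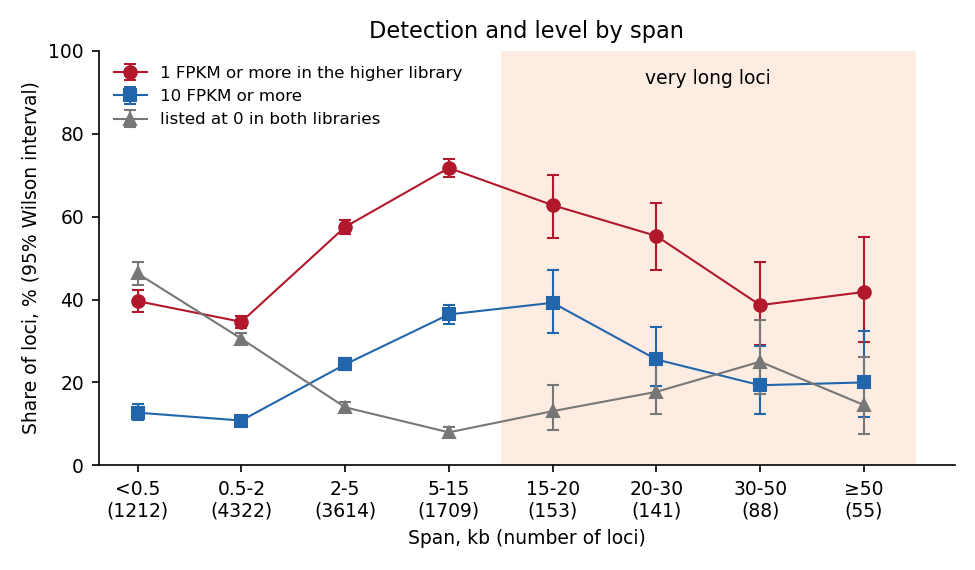
Share of loci (percent, with 95% Wilson intervals over loci) that reached 1 FPKM, reached 10 FPKM or were listed at 0 in both libraries, by span in kilobases, with the number of loci in parentheses and the very long loci shaded. The share reaching 1 FPKM is 71.7% between 5000 and 15000 bp and 39.9% over the 143 loci of 30000 bp or more.

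Levels of detected very long loci differed with span. Over all very long loci above 0, the median was 4.91 FPKM in rea1 (95% interval 3.40 to 6.76, quartiles 0.523 and 15.5) and 5.49 FPKM in WT (4.01 to 6.88, quartiles 0.614 and 14.9). In loci of 2000 to 5000 bp the medians were 3.09 FPKM (2.80 to 3.41) and 3.20 FPKM (2.86 to 3.41). Between 5000 and 15000 bp they were 5.86 FPKM and 6.18 FPKM. Within the very long loci, the medians in rea1 and WT were 8.25 FPKM and 8.56 FPKM below 20000 bp. At 30000 bp or more, over 92 loci above 0 in rea1 and 98 in WT, they were 1.46 FPKM (0.594 to 4.81) and 1.85 FPKM (0.600 to 4.11), under the medians of loci of 2000 to 5000 bp. Intervals of medians come from the order statistics of the loci and share the limit named for the Wilson intervals. Of the very long loci, 5 reached 100 FPKM (1.14%, 0.49 to 2.65), against 97 of 3614 loci of 2000 to 5000 bp (2.68%, 2.21 to 3.26). These intervals overlap. The first also includes the 1.93% of loci between 5000 and 15000 bp and the 2.39% of all single-position loci. All very long loci together summed to 4518 FPKM in rea1 and 4535 FPKM in WT, which was 0.998% and 0.994% of the FPKM of all rows.

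The 8 very long loci with the highest mean level lay on chromosomes 1, 2, 4 and 5. On chromosome 5, the locus at 168492139 to 168509225 (span 17087 bp) had 659.9 FPKM in rea1 and 341.8 FPKM in WT, 1.93-fold higher in rea1. On chromosome 1, the locus at 162047479 to 162097052 (49574 bp) had 150.7 FPKM in rea1 and 631.5 FPKM in WT, 4.19-fold lower in rea1. These 2 loci had the highest means and differed between the libraries in opposite directions. On chromosome 2, the locus at 71740629 to 71768626 had 202.3 FPKM in rea1 and 145.6 FPKM in WT. The other 5 all lay on chromosome 4 and ranged from 65.4 to 121.8 FPKM in rea1 and from 73.7 to 113.5 FPKM in WT. Each of these 5 lay within 1.46-fold between the libraries. The locus at 23650363 to 23665453 was nearly equal, at 79.27 FPKM in rea1 and 79.26 FPKM in WT.

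The 5 longest loci ran from 126792 to 191581 bp and included low and well-expressed ones. The longest, on chromosome 3 at 23906023 to 24097603, had 21.1 FPKM in rea1 and 81.3 FPKM in WT, 3.86-fold lower in rea1. A chromosome 1 locus at 265088866 to 265219536, 130671 bp long, had 18.0 FPKM in rea1 and 36.3 FPKM in WT, 2.02-fold lower in rea1. With the pseudocount of 1 described below this locus stayed just short of the 2-fold limit, at a log2 ratio of -0.97. The remaining 3 stayed below 1 FPKM in both libraries. At the limit of the rule, the 3 loci just inside, of 15004 to 15055 bp, had 0.218, 5.42 and 0.714 FPKM in rea1 and 0.391, 11.2 and 0.948 FPKM in WT. The 3 just outside, of 14863 to 14984 bp, had 9.92, 0.249 and 0 FPKM in rea1 and 14.5, 0.943 and 0.054 FPKM in WT.

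The rea1 library was compared with the WT library by the log2 ratio, the difference in log2(FPKM + 1) between rea1 and WT, taken among loci whose higher value reached 1 FPKM. Adding 1 to each value makes differences between low values appear smaller than they are. The 231 very long loci that reached 1 FPKM had a median log2 ratio of -0.0016 (95% interval -0.093 to 0.071) on the deposited scale, with 113 above 0 and 118 below. Over all 5995 rows reaching 1 FPKM the median was 0.093, and in loci of 2000 to 5000 bp it was 0.13 (0.094 to 0.17). When the median ratio of loci with both values at 10 FPKM or more was set to 0, which removes a log2 shift of 0.23, the medians became -0.20 in very long loci, -0.069 in loci of 2000 to 5000 bp and -0.11 over all rows. A direction for the very long loci as a whole therefore depends on the scaling. Their position relative to other loci could hardly change, because this scaling multiplies all rea1 values by the same factor.

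A 2-fold difference was found for 20 of the 231 very long loci (8.66%, 95% Wilson interval 5.67 to 13.0), against 22.0% of all 5995 rows reaching 1 FPKM, many of which are short. Of the 20, 5 were higher in rea1, or 2.16% against a background of 12.3%, and 15 were lower, or 6.49% against 9.67%. Among loci of 2000 to 5000 bp, 322 of 2078 differed by 2-fold (15.5%, 14.0 to 17.1), 215 of them higher in rea1 and 107 lower. Between 5000 and 15000 bp it was 113 of 1226 (9.22%), with 63 higher and 50 lower. The interval of the very long loci thus lay below that of loci of 2000 to 5000 bp and held the share of the loci between. The intervals of the very long and the 2000 to 5000 bp loci overlapped with the median ratio set to 0, at 9.52% (6.37 to 14.0) and 14.2% (12.7 to 15.7). They also overlapped after rescaling without the 100 most abundant loci, which raises all remaining values, at 21.3% (17.0 to 26.4) of 291 and 25.9% (24.3 to 27.6) of 2650. Higher calls made up 25% of the calls in very long loci, and 18.2% to 32.3% under the other scalings. In loci of 2000 to 5000 bp the split turned with the scaling, from 215 higher and 107 lower to 137 and 153 with the median ratio set to 0 and to 241 and 446 after rescaling without the 100 most abundant loci.

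**Figure D2:**
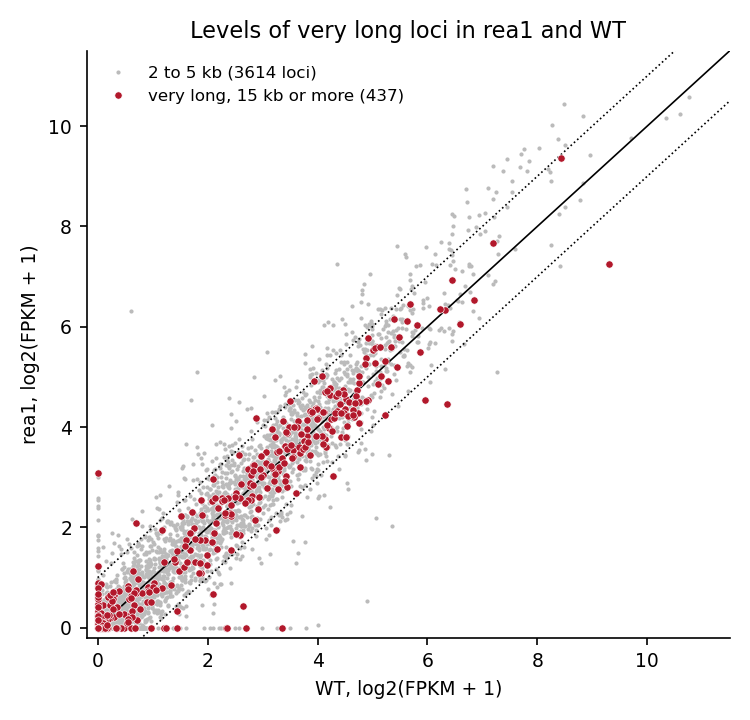
FPKM in rea1 against FPKM in WT, both as log2(FPKM + 1), for the 437 very long loci (red) and the 3614 loci of 2000 to 5000 bp (grey), with 1 library per genotype. The solid line marks equality and the dotted lines a 2-fold difference, and 20 very long loci that reached 1 FPKM lie at or beyond the dotted lines.

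Since ratios in these libraries varied with level, loci of 2000 to 5000 bp were weighted so that each bin of mean FPKM, 1 unit wide on the log2 scale, held the same share as among the very long loci. All 231 very long loci fell into bins that also held comparison loci, of which 2068 were used. The weighted median log2 ratio of the comparison loci was 0.17, so the median of very long loci lay 0.17 below it on the log2 scale. With the interval of the very long median alone, the difference was -0.17 (-0.26 to -0.096), and it ranged from -0.23 to -0.054 over the alternatives run. Against weighted loci between 5000 and 15000 bp it was -0.066, with an interval of -0.16 to 0.0069 that includes 0. The weighted share with a 2-fold difference was 15.2%, against 8.66% in very long loci. The 2 directions did not behave alike, since 2.16% of very long loci and 10.4% of weighted comparison loci were 2-fold higher in rea1, whereas 6.49% and 4.78% were 2-fold lower. The 90th percentile of ratios was 0.54 in very long loci and 1.02 in the weighted loci, and the 10th percentile was -0.71 and -0.69. The distributions thus parted mainly on the side of higher values in rea1. At 4-fold the order was the other way round, with 7 very long loci (3.03%, 1.48 to 6.12) against a weighted 1.78% and a background of 4.60%. The interval includes both of these shares, and most of the 7 were listed at 0 in 1 library. Weighted loci between 5000 and 15000 bp came closer to the very long loci, with a median of 0.064, 9.97% differing by 2-fold, 5.84% higher and 4.13% lower.

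**Figure D3:**
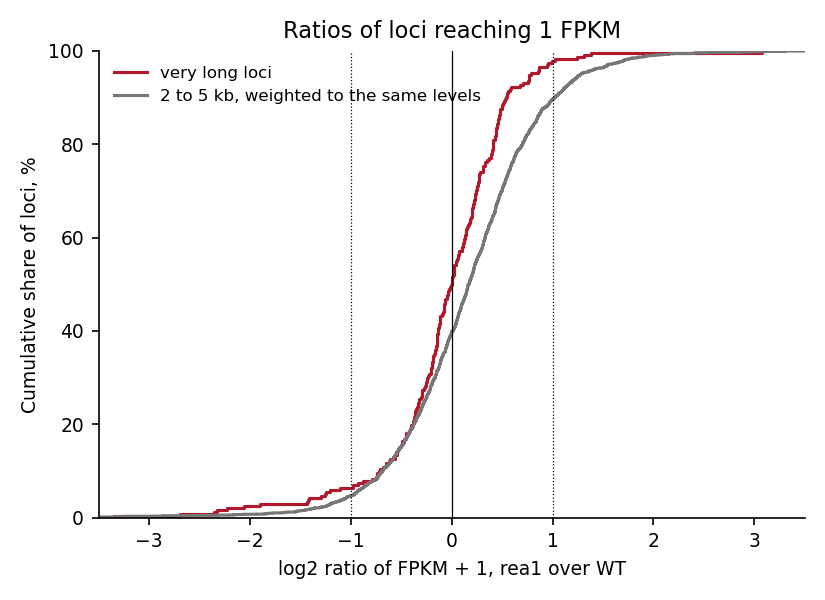
Cumulative share of loci (percent) against the log2 ratio of FPKM + 1, rea1 over WT, for the 231 very long loci reaching 1 FPKM (red) and for loci of 2000 to 5000 bp weighted to the same levels (grey), with dotted lines at a 2-fold difference. The curves nearly coincide up to a ratio of about -0.7, and above it the very long loci reach each share at lower ratios, with a 90th percentile of 0.54 against 1.02.

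The gap between spans depended on level. At a mean of 8 FPKM or more, 6 of 136 very long loci differed by 2-fold (4.41%, 2.04 to 9.29), 2 higher and 4 lower in rea1. Of all rows at this level 20.5% differed, 13.8% being higher and 6.73% lower. In loci of 2000 to 5000 bp it was 169 of 903 (18.7%, 16.3 to 21.4), with 139 higher and 30 lower, and between 5000 and 15000 bp 64 of 654 (9.79%, 7.74 to 12.3). Under the other scalings the share at this level was 4.58% to 11.6% in very long loci and 15.7% to 19.0% in loci of 2000 to 5000 bp. The lowest share was seen at 8 to 32 FPKM, where 3 of 107 very long loci differed (2.80%, 0.96 to 7.92) against 80 of 631 (12.7%, 10.3 to 15.5) and 15.1% of all rows at this level.

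Median ratios were higher at higher levels in each span class. At 32 to 128 FPKM the median log2 ratio was 0.25 (-0.14 to 0.50) in 26 very long loci and 0.54 (0.42 to 0.62) in 210 loci of 2000 to 5000 bp. None of the 26 was 2-fold higher in rea1 and 2 were lower, against 50 higher and 4 lower among the 210, and 18.0% higher and 7.82% lower among all rows at this level. At 128 FPKM or more only 3 very long loci remained, with log2 ratios of 0.95, 0.47 and -2.06. At a mean of 8 FPKM or more the medians were 0.069 (-0.043 to 0.18) and 0.31 (0.23 to 0.35). With the median ratio set to 0 they became -0.15 and 0.11, so the sign for very long loci turned. This scaling multiplies all rea1 values by the same factor, so the order of the span classes could hardly change.

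**Figure D4:**
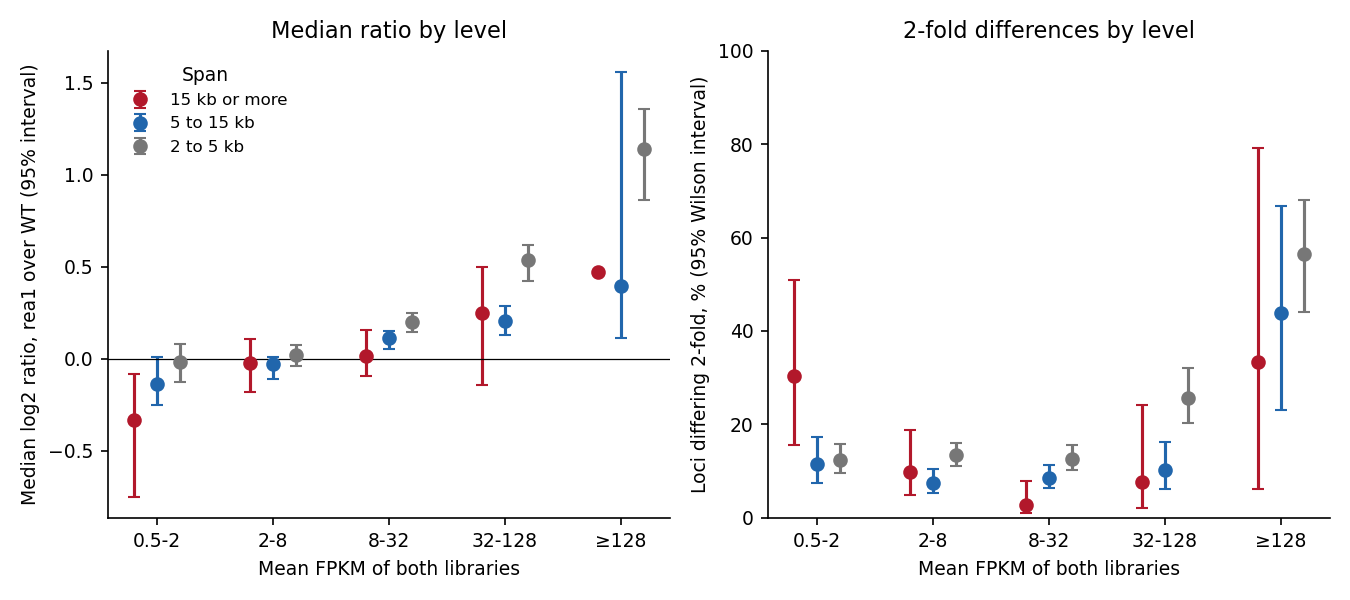
Median log2 ratio of rea1 over WT with its 95% interval over loci (left) and share of loci differing by 2-fold with its 95% Wilson interval (right), by mean FPKM of both libraries, for very long loci, loci between 5000 and 15000 bp and loci of 2000 to 5000 bp that reached 1 FPKM. At 32 to 128 FPKM the median is 0.25 in very long loci and 0.54 in loci of 2000 to 5000 bp, and the 3 very long loci at 128 FPKM or more have no interval.

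At low level the very long loci did not have the smaller share. At a mean of 0.5 to 2 FPKM, 7 of 23 very long loci differed by 2-fold (30.4%, 15.6 to 50.9), with 5 lower in rea1, against 51 of 414 loci of 2000 to 5000 bp (12.3%, 9.50 to 15.8). Over all rows at this level the share was 28.8%, so that of the very long loci was near the background. Loci with a mean under 1 FPKM entered only if 1 library reached 1 FPKM, so more nearly equal ones were left out. Shares and medians in this band therefore depend partly on the minimum, in each span class and over all rows. The median ratio of the 23 was -0.34 (-0.75 to -0.083) on the deposited scale. At 2 to 8 FPKM the shares were 9.72% of 72 and 13.4% of 761, with 19.1% over all rows. Of the 20 very long loci with a 2-fold difference, 14 had a mean under 8 FPKM, 13 had a lower value under 1 FPKM and 9 were listed at 0 in 1 library. With the pseudocount of 1, a locus at 0 in 1 library and 1 FPKM or more in the other always counts as different. By span, of 57 that reached 1 FPKM at spans of 30000 bp or more, 9 were 2-fold lower in rea1 and 1 was higher (17.5% in all, 9.82 to 29.4), against 6 lower and 4 higher among 174 below 30000 bp (5.75%, 3.15 to 10.3). Both shares lie under the 22.0% of all rows, which the first interval includes. Of those 9 lower loci, 7 had a mean under 8 FPKM.

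The most extreme ratios belonged to very long loci listed at 0 in 1 library. Of 9 listed at 0 in 1 library while reaching 1 FPKM in the other, 7 had their 0 in rea1 and 2 in WT. These 9 were 3.90% of the very long loci reaching 1 FPKM. Over all single-position loci it was 394 of 5511 (7.15%), 211 with their 0 in rea1 and 183 in WT. Of loci reaching 1 FPKM, this share was 42.3% under 500 bp, 1.73% at 2000 to 5000 bp and 1.31% between 5000 and 15000 bp. The very long loci thus lay below all loci together but above the loci of 2000 to 5000 bp and those between. The 4 lowest ratios all belonged to loci of chromosome 2 listed at 0 in rea1. In WT, the locus at 232477829 to 232502016 had 9.21 FPKM and that at 224684337 to 224716686 had 5.49 FPKM. Further inside the chromosome, 109260299 to 109311620 had 4.11 FPKM and 121392280 to 121438293 had 4.03 FPKM in WT. No fold is given against a value of 0. These 4 positions were not neighbours of each other. The next ratio was that of a chromosome 6 locus at 141987795 to 142056340, where the level was 0.344 FPKM in rea1 and 5.28 FPKM in WT, a 15.3-fold difference.

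Well-expressed loci among the lower ones were few. Besides the chromosome 1 locus at 162047479 and the longest locus of chromosome 3, a chromosome 4 locus at 44204564 to 44219743 had 22.2 FPKM in rea1 and 60.8 FPKM in WT, 2.74-fold lower in rea1. A chromosome 7 locus at 73078556 to 73102879 had 7.15 FPKM in rea1 and 18.4 FPKM in WT, 2.57-fold lower, while its nearest listed neighbour, 16.9 kb away, had 25.6 FPKM in rea1 and 8.98 FPKM in WT. The neighbour thus ran in the opposite direction. Near the chromosome 1 locus, the closest listed position, 15.0 kb away, had 0.049 FPKM in rea1 and 0.157 FPKM in WT, so the high level did not extend to that neighbour. The closest position to the longest locus, 3.12 kb away, was listed at 0 in both libraries.

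Loci 2-fold higher in rea1 were fewer. The highest ratio was that of a chromosome 3 locus at 99724712 to 99742946, listed at 0 in WT and at 7.44 FPKM in rea1. A chromosome 2 locus at 34309164 to 34357069 had 3.23 FPKM in rea1 and 0.621 FPKM in WT, 5.19-fold higher in rea1. On chromosome 1, at 162316146 to 162333643, FPKM was 17.2 in rea1 and 6.35 in WT, 2.71-fold higher. The ratios of this locus and of the 49574 bp locus of the same chromosome had opposite signs. A chromosome 5 locus at 164380304 to 164401827 had 21.9 FPKM in rea1 and 10.3 FPKM in WT. A chromosome 7 locus at 90774331 to 90803178 was listed at 0 in WT and at 1.36 FPKM in rea1. The next ratio, on chromosome 10 at 77758100 to 77774208, was 0.998 on the log2 scale and just missed the limit, with 29.4 FPKM in rea1 and 14.2 FPKM in WT.

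**Figure D5:**
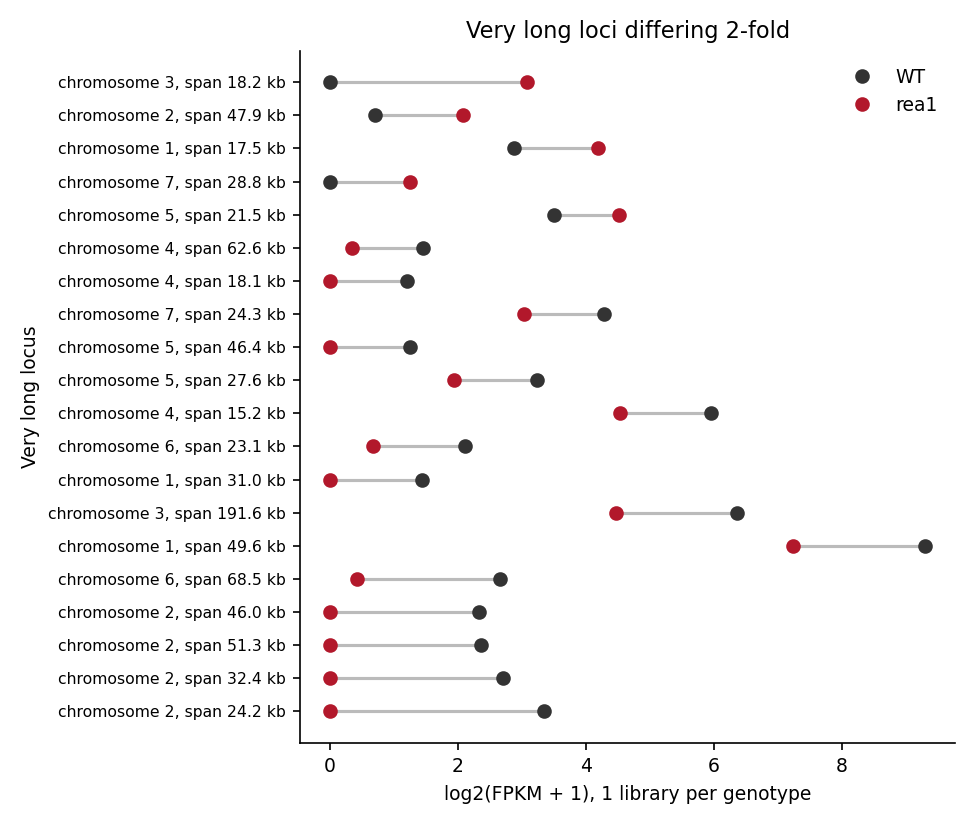
Levels as log2(FPKM + 1) in the WT library (black) and the rea1 library (red) of the 20 very long loci differing by 2-fold and reaching 1 FPKM, ordered by ratio and labelled by chromosome and span. The 5 at the top are higher in rea1 and the 15 below are lower, with 7 of these listed at 0 in rea1.

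Very long loci lay in sparser surroundings than shorter loci, a feature that the choice by span did not use directly. In a window of 1 Mb centred on the locus, the median number of other listed positions was 5 (quartiles 3 and 8) around very long loci and 7 (4 and 11) around loci of 2000 to 5000 bp. A very long locus fills part of its own window, which leaves less room for others. The nearest listed position lay at a median distance of 58.8 kb from very long loci and 12.7 kb from loci of 2000 to 5000 bp. Along each chromosome, measured up to its last listed position, 33.6% (29.4 to 38.2) of very long loci had their midpoint between 20% and 60% of that length, against 20.6% (19.3 to 22.0) of loci of 2000 to 5000 bp. In this interior stretch 55.1% (47.0 to 62.9) of very long loci and 48.3% (44.8 to 51.9) of the comparison loci reached 1 FPKM. In the first 20% the shares were 53.9% (43.6 to 63.9) and 61.6% (58.4 to 64.8). From 60% on, with 201 very long and 1959 comparison loci, they were 50.7% (43.9 to 57.6) and 59.1% (56.9 to 61.2). The comparison loci were thus expressed less often in the interior, and for very long loci the intervals of these stretches overlapped.

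By chromosome, very long loci made up between 2.63% of the single-position loci on chromosome 9 and 4.89% on chromosome 7. The median log2 ratio of those reaching 1 FPKM ranged from -0.15 on chromosome 4, over 25 loci, to 0.18 on chromosome 9, over 11 loci. Chromosome 2 held 4 of the 15 lower loci, among 32 very long loci reaching 1 FPKM, and chromosome 4 held 3, among 25. Chromosomes 8, 9 and 10 held none of the 20 that differed, with only 17, 11 and 17 reaching 1 FPKM. The share over all rows of each chromosome was not computed, so no chromosome is singled out. For 107 very long loci the nearest listed neighbour also reached 1 FPKM at a single position, and the log2 ratios of locus and neighbour had a Pearson correlation of 0.13 and a Spearman correlation of 0.19, as a description across loci that share the same 2 libraries. In loci of 2000 to 5000 bp these were 0.044 and 0.093 over 1116 loci.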

How the data were processed

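Endosperm RNA of rea1 and WT, with 1 value per locus each, was analysed, grouped by the genotype label. The authors deposited FPKM values, named so per the file headers. Bowtie 0.12.2 appears in the submitters' processing notes. The program behind FPKM, the genome build, the annotation, any filter and any pooling are unstated in the labels and headers, and coordinates belong to that unstated build. Starts were read as counting from 0, because 4825 of 12140 spans were multiples of 3, and are printed 1 higher. Members, lists and rules were chosen with earlier results of these data known. Single loci named were the 6 highest and 6 lowest log2 ratios at 1 FPKM or more, the 8 highest means, the 5 longest spans and 3 loci on each side of 15000 bp. The other loci with a 2-fold difference given by position, the level bands, the split at 30000 bp and the comparisons of surroundings were chosen after values were seen. Alternatives changed pseudocount, minimum level, scaling (including a trimmed mean that drops 30% of ratios and 5% of levels at either end), span limit, threshold, bins and comparison loci. The 2-fold call, the scaling and the weighting were run on simulated data. The seeded changes were 4-fold at loci of 10 FPKM or more in WT, so calls at low level were not tested. Depth is unknown. Values were computed in Python 3.11.15 with pandas 2.3.3, numpy 2.4.6 and scipy 1.17.1, and drawn with matplotlib 3.10.9. No sequence was printed, since no genome of the files' build was used here.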

Additional observations from a re-analysis of the deposited data

How the results depend on the processing

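The median log2 ratio of very long loci relative to weighted loci of 2000 to 5000 bp was negative in all 14 alternatives, between -0.23 and -0.054. The median and trimmed-mean scalings multiply all rea1 values by the same factor and could hardly change this difference. The difference was -0.077 with a pseudocount of 10 and -0.054 with any value above 0. Against loci between 5000 and 15000 bp it was -0.066, with an interval that includes 0. The median ratio itself became -0.20 when well-expressed loci were centred on a median ratio of 0, -0.25 after rescaling without the 100 most abundant loci, and 0.098 at a minimum of 10 FPKM. The numbers 2-fold higher and lower in rea1, 5 and 15 as reported, stayed within 1.5-fold of these values in 4 and 7 of 14 alternatives. The alternatives with any value above 0 and without overlapping loci are among these, although they could only return 5 and 15. With a pseudocount of 1, a 2-fold difference requires a higher value of at least 1 FPKM, and no loci overlapped. The numbers were 4 and 18 with well-expressed loci centred (9.52%, against 21.1% of all rows). They were 4 and 16 with the trimmed mean (8.66%, against 21.5% of all rows). With a pseudocount of 0.1 they were 8 and 21, and with a pseudocount of 10 they were 0 and 3 (1.30% of loci). At a minimum of 10 FPKM they were 2 and 4 (4.84%), and with both values above 0 they were 3 and 8 (4.95%). Without the 100 most abundant loci they were 20 and 42 (21.3%), against 35.8% of all rows. With spans of 10000 bp or more they were 11 and 26 (8.04%), and with spans of 20000 bp or more 3 and 13 (11.9%). With repeated coordinates included they were 13 and 20 (10.3%). The share over all rows is 22.0% for these 3 settings. At 1.5-fold the numbers were 19 and 29 (20.8%), and at 4-fold 1 and 6 (3.03%, against 4.60% of all rows). With any value above 0 the share was 5.52%. The lower calls outnumbered the higher ones in each of these. Over all rows the share was not computed for a changed pseudocount or minimum level, nor at 1.5-fold. The expressed share was 82.8% for any value above 0, 28.4% at a minimum of 10 FPKM, 66.9% without the 100 most abundant loci, 59.1% from 10000 bp and 47.5% from 20000 bp. The median level in rea1 and WT was 18.8 and 18.9 FPKM at a minimum of 10 FPKM, 23.1 and 30.7 FPKM without the 100 most abundant loci, and 2.84 and 3.98 FPKM from 20000 bp. These follow from the sets and scales themselves, since the filters and span limits keep other loci and the rescaling raises all remaining values. Leaving out loci that overlap another position removed none. No paired analysis was possible because rea1 and WT have a single library each, and for the same reason leaving out a replicate could not be tried.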

Other observations

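The 169 rows of 15000 bp or more that shared 77 positions with other rows were outside the rule. Of these, 90 reached 1 FPKM (53.3%, 95% Wilson interval 45.7 to 60.6), and their median log2 ratio was -0.021 (-0.15 to 0.11). In this set 8 rows were 2-fold higher in rea1 (8.89%) and 5 lower (5.56%), against 12.3% and 9.67% of all rows reaching 1 FPKM. The excess of lower over higher calls seen among the very long loci of single position was thus not seen here. Rows of 1 position are not independent of each other.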
